A study of Homo sapiens with 17 samples.

Results

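The 9 genes described here encode core subunits of the protein complexes that give an epithelial cell an apical and a basal side. They are the PAR6 adaptors PARD6A, PARD6B and PARD6G, the atypical protein kinases C PRKCI and PRKCZ, the Lgl proteins LLGL1 and LLGL2, the scaffold SCRIB and the small membrane protein CRB3. They were found by gene symbol in a table of 16884 protein-coding genes, and each symbol matched. Messenger RNA was measured in 17 libraries of the wild-type human bronchial epithelial line BEAS-2B, which is immortalised and was grown in BEGM, a bronchial epithelial growth medium. For 24 h the cells received medium with 0 mM acetaldehyde (control, 6 libraries), 10 mM acetaldehyde (6 libraries) or 16 mM acetaldehyde (5 libraries). Acetaldehyde is a reactive aldehyde of ethanol metabolism and tobacco smoke. All groups are the same line, so they model 1 immortalised cell background. PARD6A was known to be lower at 16 mM than at 10 mM when the genes were chosen, so its values and the comparison between the doses are given as description with no test.

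In polarised epithelium, PAR6 binds PAR3, active CDC42 and an atypical protein kinase C, and this PAR complex works on the apical side and at the junctions. The Crumbs complex, which includes CRB3, marks the apical membrane, and the Scribble module of SCRIB, Lgl and Dlg proteins marks the basolateral side. The kinase and Lgl exclude each other: atypical protein kinase C phosphorylates Lgl and drives it off the apical cortex, and Lgl holds the kinase and PAR6 in an inactive complex.

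At 16 mM PARD6A stood at a median of 2.75 FPKM (fragments per kilobase of transcript, scaled to library depth), against 8.43 FPKM in control and 7.26 FPKM at 10 mM. PRKCZ fell at 16 mM by 0.26 ± 0.09 on the log2 scale (estimate ± SE), a call that several other settings lost, whereas PRKCI stayed between 32.5 and 37.1 FPKM in all libraries but 10 mM library 1. SCRIB, LLGL1 and PARD6G were higher at both doses by 0.19 to 0.45 on the log2 scale when 10 mM library 1 was left out, and none of them passed the test with it. In a fit of control and 16 mM libraries alone, where 7979 of 12410 genes passed, each of them passed. Within the second set of close libraries described below, none of them passed at 16 mM (0.02 to 0.17). CRB3 was barely detected in any group. The PAR6 partners PARD3 and PARD3B fell at both doses.

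Total estimated counts lay between 15952673 and 18809242 per library. One library, 10 mM library 1, differed from all others: across genes its r with the other 10 mM libraries was 0.84 to 0.866 (log2 scale), against at least 0.977 for every other pair within a group, and its TMM scaling factor was 0.559, against at least 0.967. The changes of the members and the counts of calls are therefore given with and without it, the correlations between genes leave it out, and the changes of partner genes use all libraries unless stated. The other 16 libraries fall, by their values and not by any label, into a first set of close libraries (control 1 to 3, 10 mM 2 to 4, 16 mM 1 to 3; r of at least 0.991 within a group) and a second set (control 4 to 6, 10 mM 5 and 6, 16 mM 4 and 5). The labels name neither a batch nor separate cultures, so p-values measure the spread between these libraries, which may be technical. Of the epithelial markers in the table, 6 of 10 were below 1 FPKM in every library, among them the epithelial adhesion genes CDH1 (at most 0.12 FPKM) and EPCAM (at most 0.05 FPKM), whereas the keratins KRT8, KRT18 and KRT7 lay at 181 FPKM or more and the mesenchymal filament gene VIM between 489 and 1400 FPKM. The epithelial label thus holds for these keratins and not for CDH1 or EPCAM. The epithelial markers summed to 875 to 1680 FPKM in control, 1120 to 5790 FPKM with 10 mM and 1200 to 1320 FPKM with 16 mM. Among them KRT17 stood at 34.5 to 60.9, 81.5 to 307 and 154 to 202 FPKM in that order. KRT8 (181 to 440, 345 to 643 and 349 to 371 FPKM) overlapped control at both doses. So did KRT18 (288 to 479, 314 to 1250 and 273 to 292 FPKM) and KRT7 (355 to 725, 371 to 3580 and 396 to 463 FPKM). The fibroblast markers summed to 600 to 986 FPKM in control libraries, to 618 to 1430 FPKM in 10 mM libraries and to 515 to 651 FPKM in 16 mM libraries, most of it VIM, and the endothelial markers to at most 0.65 FPKM. The fibroblast markers PDGFRB (9.11 to 16.6, 0.38 to 7.89 and 2.07 to 4.73 FPKM in the order of dose) and FAP (1.52 to 2.36, 0.42 to 1.45 and 0.36 to 0.63 FPKM) were lower in every exposed library than in every control. VIM, COL1A1, THY1 and DCN overlapped control at both doses. LUM overlapped control at 10 mM and lay below it at 16 mM (0.15 to 0.28 against 0.43 to 0.78 FPKM). Leukocyte markers summed to 2.65 to 4.37, 7.75 to 12.5 and 9.81 to 13.3 FPKM in these groups, nearly all of it from the lysosomal gene CD68, with PTPRC and CD3E at most at 0.06 FPKM. The part of these markers in the results was not tested.

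**Figure D1:**
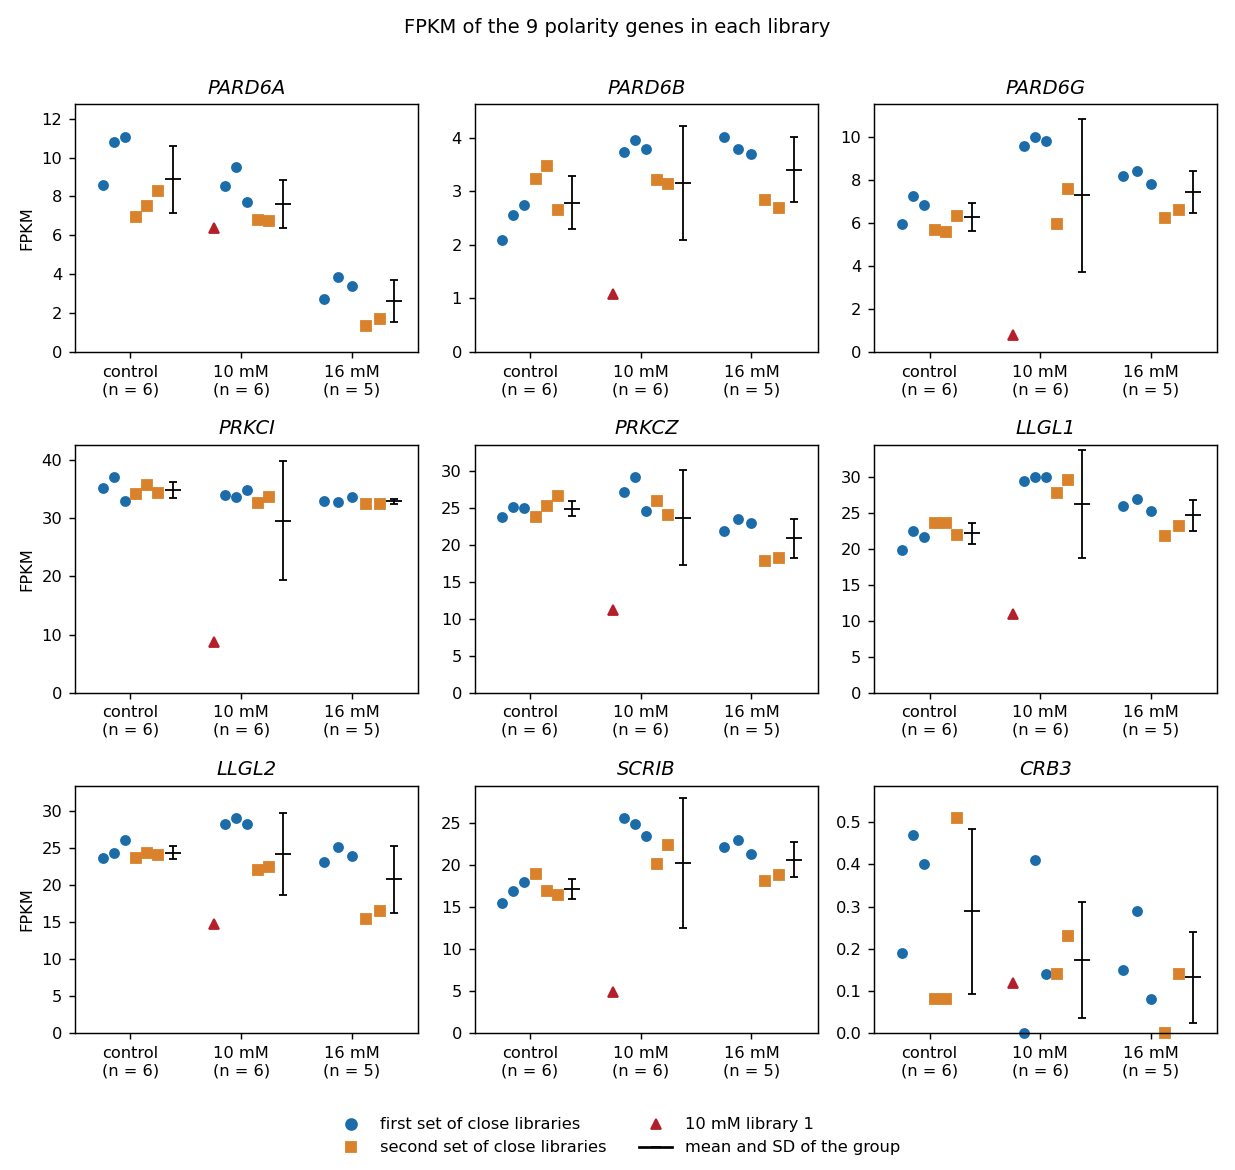
FPKM of each polarity gene in every library (points) by group, with the group mean and SD in black; colours mark the sets of close libraries and the triangle marks 10 mM library 1. PARD6A lies between 1.36 and 3.87 FPKM at 16 mM and at 6.37 FPKM or more in the other groups, and the triangle is the lowest 10 mM point for every gene except CRB3.

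PARD6A, the most abundant of the PAR6 genes in control cells, spans 1.83 kb on the plus strand of chromosome 16 (67660946 to 67662778, GENCODE 29 on GRCh38), and no other annotated gene overlaps it. Its control libraries 1 to 6 held 8.58, 10.81, 11.07, 6.96, 7.52 and 8.29 FPKM. The 10 mM libraries 1 to 6 held 6.37, 8.52, 9.5, 7.72, 6.8 and 6.73 FPKM, and the 16 mM libraries 1 to 5 held 2.75, 3.87, 3.39, 1.36 and 1.68 FPKM. All 16 mM libraries lay below all others, while control and 10 mM overlapped. Behind these values stand 109 to 173 counts per control library, 104 to 150 per 10 mM library and 21 to 60 per 16 mM library. The level at 16 mM was 0.295 of control, a log2 difference of -1.76 ± 0.23, and -1.75 ± 0.20 without 10 mM library 1. Between 10 mM and control the difference was -0.05 ± 0.20, or -0.17 ± 0.18 without that library, and between the doses it was -1.71 ± 0.23, or -1.58 ± 0.21. On edgeR's scale 10 mM library 1 held 10.9 CPM (depth-scaled counts, normalised by TMM), although its FPKM was the lowest of its group, since FPKM are not scaled by the TMM factor. Within the sets of close libraries the 16 mM difference from control was -1.60 ± 0.15 in the first and -2.27 ± 0.18 in the second. In RNA from a whole culture, a lower level in each cell and fewer cells with the transcript cannot be told apart.

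The promoter window of PARD6A (RefSeq, GRCh38.p14, plus strand, chr16:67660710-67661009, 250 bases before to 50 after the start site) is shown because PARD6A had the largest difference at 16 mM among the 8 genes fitted. Capitals mark the letters TGACGTCA, the cAMP response element to which CREB and ATF factors bind, which lies at -58 from the start site.
PARD6A: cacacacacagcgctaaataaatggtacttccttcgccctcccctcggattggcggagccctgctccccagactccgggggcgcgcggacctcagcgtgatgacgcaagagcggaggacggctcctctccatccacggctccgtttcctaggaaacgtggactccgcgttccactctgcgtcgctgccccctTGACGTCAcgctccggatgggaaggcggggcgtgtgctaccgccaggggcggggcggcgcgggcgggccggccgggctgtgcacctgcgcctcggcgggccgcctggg
The motif was searched on both strands and reads the same on each. It was chosen after the sequences had been read, and 1.85% of 35116 promoter windows of this length hold it.

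PARD6G and PARD6B encode the other PAR6 adaptors, PARD6G on the minus strand of chromosome 18 (80157232 to 80247546) and PARD6B on the plus strand of chromosome 20 (50731544 to 50756795). The control level of PARD6G was 5.57 to 7.23 FPKM (median 6.12). Its 10 mM libraries 1 to 6 had 0.77, 9.56, 9.99, 9.77, 5.95 and 7.57 FPKM, and its 16 mM libraries 1 to 5 had 8.16, 8.41, 7.78, 6.22 and 6.59 FPKM. Both exposed groups overlap control, and at 10 mM the first set of close libraries is the highest. The log2 change was 0.24 ± 0.28 at 10 mM (edgeR adjusted p = 0.577, by the quasi-likelihood test with Benjamini-Hochberg adjustment over all genes tested) and 0.26 ± 0.30 at 16 mM (edgeR adjusted p = 0.536). When 10 mM library 1 was left out, PARD6G rose by 0.45 ± 0.10 at 10 mM (edgeR adjusted p = 0.00213) and by 0.27 ± 0.11 at 16 mM (edgeR adjusted p = 0.0328). At 16 mM it stood at 0.29 ± 0.07 within the first set and at 0.17 ± 0.09 within the second (edgeR adjusted p = 0.0928). On sums of close libraries without 10 mM library 1 it did not pass at 16 mM (edgeR adjusted p = 0.381).

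PARD6B was the least abundant PAR6 gene, and its control libraries 1 to 6 had 2.1, 2.55, 2.75, 3.23, 3.47 and 2.65 FPKM. The 10 mM libraries 1 to 6 had 1.09, 3.74, 3.96, 3.79, 3.22 and 3.14 FPKM, and the 16 mM libraries 1 to 5 had 4.02, 3.79, 3.69, 2.83 and 2.69 FPKM. In the first set of close libraries every exposed library was above every control, whereas in the second set the groups overlapped. The log2 change was 0.24 ± 0.16 at 10 mM (edgeR adjusted p = 0.309) and 0.28 ± 0.17 at 16 mM (edgeR adjusted p = 0.213). With 10 mM library 1 left out it rose by 0.35 ± 0.13 at 10 mM (edgeR adjusted p = 0.0352), while the value of 0.29 ± 0.13 at 16 mM did not pass (edgeR adjusted p = 0.0521). With the close set added as a term to that fit, the value at 16 mM passed (0.29 ± 0.13, edgeR adjusted p = 0.0455), and with close libraries summed, again without 10 mM library 1, it did not (edgeR adjusted p = 0.449). At 16 mM it stood at 0.64 ± 0.09 within the first set and at -0.14 ± 0.11 within the second.

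FPKM are scaled for transcript length, so the PAR6 genes can be compared with each other. PARD6A made up a median of 49.9% of their summed FPKM in control (43.9% to 53.6%), 39.8% at 10 mM (36.3% to 77.4%) and 18.4% at 16 mM (13.1% to 24.1%). PARD6G had a median share of 35.4% in control, 43.0% at 10 mM and 54.7% at 16 mM, and PARD6B of 14.4%, 17.5% and 24.8%. At 16 mM PARD6G was thus the most abundant PAR6 transcript in all 5 libraries, and in control PARD6A was in all 6. The sum of these genes had a median of 16.9 FPKM in control (15.9 to 20.7), 19.4 FPKM at 10 mM (8.23 to 23.5) and 14.9 FPKM at 16 mM (10.4 to 16.1). The shares follow in part from the level of PARD6A, by which the genes were chosen, and are given with no test.

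**Figure D2:**
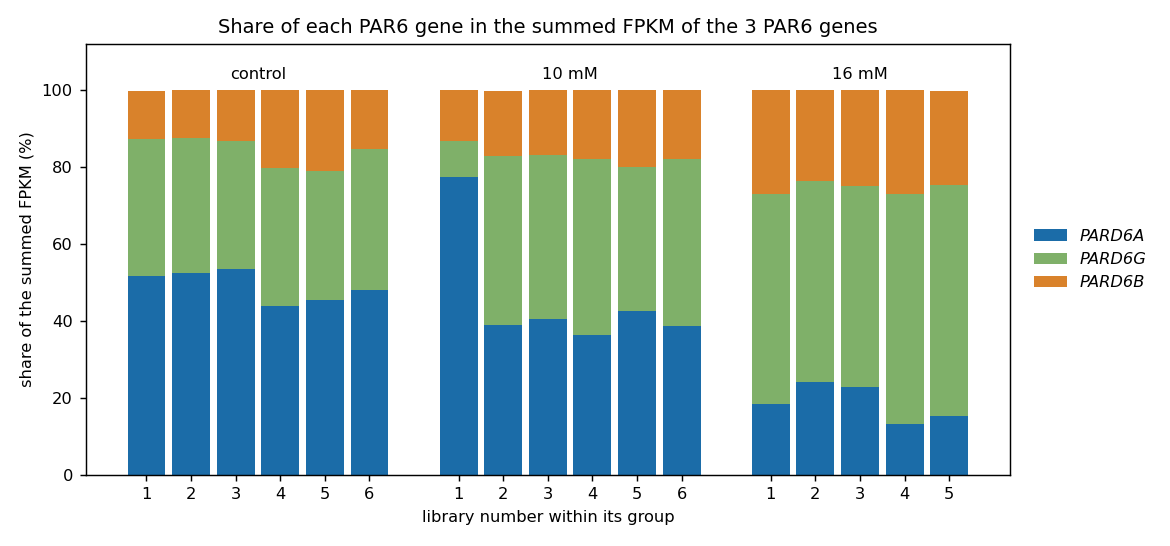
Share of PARD6A, PARD6G and PARD6B in the summed FPKM of the 3 PAR6 genes (y axis, %), 1 bar per library grouped by dose. PARD6A takes 43.9% to 53.6% in control and 13.1% to 24.1% at 16 mM; 10 mM library 1 has the largest PARD6A share, 77.4%.

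PRKCI and PRKCZ encode the kinases that PAR6 holds, protein kinase C iota and zeta. PRKCI (chromosome 3, 170222365 to 170305981, plus strand) was the most abundant of the 9 genes in FPKM. Its control libraries lay between 33 and 37.1 FPKM (median 34.8). Those with 10 mM had 8.76, 34.05, 33.73, 34.82, 32.63 and 33.69 FPKM (libraries 1 to 6), and those with 16 mM had 32.92, 32.85, 33.71, 32.55 and 32.47 FPKM (libraries 1 to 5). Apart from 10 mM library 1 the groups overlap throughout. PRKCI did not pass at either dose: its log2 change was -0.18 ± 0.14 at 10 mM (edgeR adjusted p = 0.365) and -0.07 ± 0.15 at 16 mM (edgeR adjusted p = 0.75), and without 10 mM library 1 it was -0.05 ± 0.05 (edgeR adjusted p = 0.424) and -0.06 ± 0.05 (edgeR adjusted p = 0.23).

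PRKCZ (chromosome 1, 2050470 to 2185395, plus strand) had 23.79, 25.05, 24.97, 23.79, 25.25 and 26.54 FPKM in control libraries 1 to 6. With 10 mM it had 11.15, 27.17, 29.13, 24.6, 25.96 and 24.04 FPKM (libraries 1 to 6), and with 16 mM it had 21.87, 23.49, 22.9, 17.78 and 18.26 FPKM (libraries 1 to 5). Every 16 mM library lay below every control library, the second set furthest. PRKCZ fell by 0.26 ± 0.09 at 16 mM on the log2 scale, to 0.835 of control (edgeR adjusted p = 0.0386), and by 0.25 ± 0.07 without 10 mM library 1 (edgeR adjusted p = 0.00405). The call did not hold without control library 4, 5 or 6, or without 16 mM library 1, 3, 4 or 5 (edgeR adjusted p of 0.0556 to 0.0981). It was also lost with no filter on low counts (edgeR adjusted p = 0.0694), with limma on log2(FPKM + 1) (limma adjusted p = 0.313) and with close libraries summed (edgeR adjusted p = 0.845, or 0.159 without 10 mM library 1). Within the sets its value was -0.11 ± 0.07 (first, edgeR adjusted p = 0.176) and -0.46 ± 0.06 (second, edgeR adjusted p = 4.38e-07), and whether the sets differ was not tested. Most genes passed in these fits on few close libraries, 9063 of 12613 in the first set and 9776 of 12528 in the second. At 10 mM the log2 change of PRKCZ was 0.02 ± 0.09 (edgeR adjusted p = 0.916), and 0.07 ± 0.07 without 10 mM library 1 (edgeR adjusted p = 0.459). FAAP20, which lies at 25.3 to 57 FPKM and shares 935 bases with PRKCZ on the opposite strand, cannot be told apart there, because the sources used here do not say whether the libraries keep strand.

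RefSeq lists 4 start sites of PRKCZ. The window of 1 of them (GRCh38.p14, plus strand, chr1:2073414-2073713) is shown because it is the other member window with the cAMP response element, here at -52.
PRKCZ: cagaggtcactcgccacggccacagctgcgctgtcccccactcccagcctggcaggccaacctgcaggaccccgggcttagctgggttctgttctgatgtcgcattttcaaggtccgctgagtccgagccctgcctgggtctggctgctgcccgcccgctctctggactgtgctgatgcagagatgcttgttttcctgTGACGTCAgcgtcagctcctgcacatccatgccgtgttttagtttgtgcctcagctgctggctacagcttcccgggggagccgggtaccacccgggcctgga
The other windows of PRKCZ and the windows of PARD6G, PRKCI, LLGL1 and CRB3 do not hold these letters. In all, 6 of the 9 genes had a promoter entry. PARD6B, LLGL2 and SCRIB had none.

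SCRIB, LLGL1 and LLGL2 belong to the basolateral Scribble module, SCRIB as its scaffold and the Lgl proteins as substrates of the atypical kinases. SCRIB, on chromosome 8, had 15.46, 16.93, 17.95, 18.97, 16.94 and 16.43 FPKM in control libraries 1 to 6. With 10 mM it had 4.92, 25.59, 24.88, 23.42, 20.17 and 22.41 FPKM (libraries 1 to 6), and with 16 mM it had 22.13, 22.96, 21.26, 18.07 and 18.78 FPKM (libraries 1 to 5). Apart from library 1, all 10 mM libraries lay above all controls. At 16 mM the first set lay above all controls and the second set overlapped them. The log2 change was 0.28 ± 0.17 at 10 mM (edgeR adjusted p = 0.25) and 0.28 ± 0.18 at 16 mM (edgeR adjusted p = 0.251). SCRIB without 10 mM library 1 rose by 0.44 ± 0.06 at 10 mM (edgeR adjusted p = 4.21e-05) and by 0.29 ± 0.06 at 16 mM (edgeR adjusted p = 0.000839). Its value at 16 mM was 0.41 ± 0.05 within the first set and 0.12 ± 0.06 within the second (edgeR adjusted p = 0.0824). On sums of close libraries without 10 mM library 1 it did not pass at 16 mM (edgeR adjusted p = 0.171).

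LLGL1 (chromosome 17, 18225587 to 18244875, plus strand) shares 40 bases with FLII, a gene at 48.7 to 72.2 FPKM. LLGL1 had 19.84, 22.59, 21.63, 23.64, 23.69 and 21.9 FPKM in control libraries 1 to 6. With 10 mM it had 11.0, 29.52, 30.0, 30.0, 27.82 and 29.58 FPKM (libraries 1 to 6), and with 16 mM it had 26.01, 27.04, 25.33, 21.84 and 23.25 FPKM (libraries 1 to 5). The 10 mM libraries 2 to 6 lay above all controls and library 1 below them, while at 16 mM the second set overlapped control. The log2 change was 0.27 ± 0.14 at 10 mM (edgeR adjusted p = 0.181) and 0.18 ± 0.15 at 16 mM (edgeR adjusted p = 0.374). Leaving out 10 mM library 1, LLGL1 rose by 0.40 ± 0.05 at 10 mM (edgeR adjusted p = 2.11e-05) and by 0.19 ± 0.05 at 16 mM (edgeR adjusted p = 0.00614). Its value at 16 mM was 0.32 ± 0.04 within the first set and 0.02 ± 0.05 within the second (edgeR adjusted p = 0.772). On sums of close libraries without 10 mM library 1 it did not pass at 16 mM (edgeR adjusted p = 0.384).

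LLGL2 (chromosome 17, 75525080 to 75575208, plus strand), the Lgl gene best known from epithelia, had 23.62, 24.38, 26.01, 23.68, 24.27 and 24.07 FPKM in control libraries 1 to 6. With 10 mM it had 14.77, 28.29, 29.05, 28.26, 22.02 and 22.38 FPKM (libraries 1 to 6), and with 16 mM it had 23.05, 25.14, 23.92, 15.38 and 16.5 FPKM (libraries 1 to 5). At both doses the second set lay below all controls, while the first set lay above them at 10 mM and between 23.05 and 25.14 FPKM at 16 mM. LLGL2 did not pass at 10 mM (0.03 ± 0.15, edgeR adjusted p = 0.92) or 16 mM (-0.24 ± 0.16, edgeR adjusted p = 0.258), nor without 10 mM library 1 (0.14 ± 0.11, edgeR adjusted p = 0.353, and -0.23 ± 0.12, edgeR adjusted p = 0.0859). With the close set added as a term, without 10 mM library 1, LLGL2 passed at 16 mM (-0.28 ± 0.09, edgeR adjusted p = 0.00792), whereas on sums of close libraries it did not (edgeR adjusted p = 0.283). Within the first set it stood at 0.30 ± 0.04 at 10 mM (edgeR adjusted p = 8.96e-06) and -0.01 ± 0.04 at 16 mM (edgeR adjusted p = 0.83). Within the second set it stood at -0.14 ± 0.05 (edgeR adjusted p = 0.0231) and -0.65 ± 0.05 (edgeR adjusted p = 2.12e-10). These p-values measure the spread between 2 or 3 close libraries of a group, and most genes passed in such fits. At 10 mM 8040 of 12613 genes passed in the first set and 7725 of 12528 in the second, and at 16 mM 9063 and 9776 did. In both sets the 16 mM value of LLGL2 was the lower one, and its direction at 10 mM depends on the set.

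CRB3, the Crumbs protein of most epithelia, spans 3.44 kb on chromosome 19 (6463777 to 6467221, plus strand). Control libraries 1 to 6 held 2, 4, 4, 1, 1 and 5 counts, 10 mM libraries 1 to 6 held 1, 0, 3, 1, 1 and 3 counts, and 16 mM libraries 1 to 5 held 1, 2, 1, 0 and 1 counts. The highest level was 0.51 FPKM, in control library 6. A count of 0 allows up to 3 counts, so the exposed libraries all lie at or below that floor and no fold is given. SLC25A23, which lies on the opposite strand at 7.68 to 31.4 FPKM, shares 1427 bases with CRB3, so some of these counts may not be its own. CRB3 did not pass the filter on low counts, and a difference between groups was not detectable at this depth.

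The CRB3 promoter window (RefSeq, GRCh38.p14, plus strand, chr19:6464021-6464320) is shown because it is rich in 1 motif. This window lies within the annotated span of CRB3, which begins upstream at 6463777, so its bases before the start site are not outside the gene. Capitals mark CAGGTG and its reverse complement CACCTG, the E-box to which repressors of the Snail and ZEB families are known to bind. It occurs 5 times, at -228, -208, -147, -89 and -60 from the start site.
CRB3: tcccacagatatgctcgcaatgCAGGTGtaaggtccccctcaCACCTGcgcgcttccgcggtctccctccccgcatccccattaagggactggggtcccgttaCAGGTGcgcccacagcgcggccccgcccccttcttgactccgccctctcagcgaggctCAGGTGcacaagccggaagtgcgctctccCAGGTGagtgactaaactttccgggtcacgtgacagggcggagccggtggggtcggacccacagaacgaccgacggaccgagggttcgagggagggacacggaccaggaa
Of 35116 windows, 20.6% hold this E-box at least once and 33 windows (0.094%) hold it 5 times or more. This motif too was chosen after the sequences had been read. PARD6A has 1 such E-box, PRKCZ has 3 in the window of its first start and 1 in another, and the windows of PARD6G, PRKCI and LLGL1 have none.

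Counted over the 7 tested genes other than PARD6A, 0 were called at 10 mM and 1, PRKCZ, was called at 16 mM, where it was lower. Of all 12564 genes tested, 9.41% were called higher and 9.3% lower at 10 mM, and 17.3% higher and 18.1% lower at 16 mM. At 10 mM no tested member reached an unadjusted p under 0.05 in this edgeR fit, whereas 1 did with DESeq2 and 1 with DESeq2 size factors in edgeR. After adjustment limma on log2(FPKM + 1) and DESeq2 also called 0, and the authors' deposited table gives 0 of the 8 members a q-value under 0.05. The authors' deposited table calls 4 members at 16 mM, with SCRIB, LLGL1 and PARD6G higher and PRKCZ lower. The share of all genes that their table calls is not given here, and the shares above are from another fit. An edgeR fit of only control and 16 mM libraries calls the same 4 members, and there 7979 of 12410 genes were called. Without 10 mM library 1 edgeR called 4 of 7 higher and 0 lower at 10 mM, where 22.4% of 12545 genes were higher and 22.8% lower. At 16 mM it then called 3 higher and 1 lower, where 33.7% were higher and 32.2% lower. The 3 higher and 1 lower of 7 at 16 mM are to be read against those shares. With close libraries summed, 0 members were called at either dose, with or without 10 mM library 1. Over all genes such sums called 0 of 13525 at either dose. Without that library they called 246 of 13465 genes at 10 mM and 3477 at 16 mM.

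**Figure D3:**
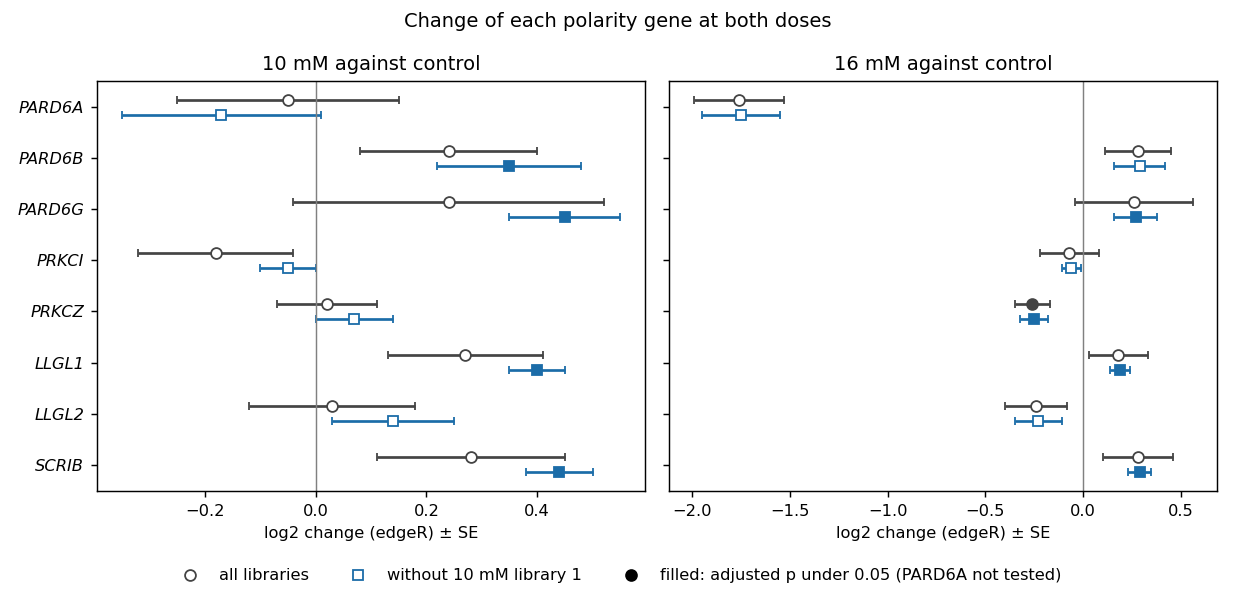
Log2 change against control from edgeR, with SE, for the 8 genes fitted, at 10 mM and 16 mM (the axes differ in range); circles use all libraries, squares leave out 10 mM library 1, and filled symbols have an adjusted p under 0.05. PARD6A is drawn as description; at 10 mM SCRIB, LLGL1, PARD6B and PARD6G are filled only without library 1.

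Between the doses, described with no test, PRKCZ was lower at 16 mM than at 10 mM by -0.28 ± 0.09 on the log2 scale and LLGL2 by -0.27 ± 0.16, or by -0.32 ± 0.07 and -0.37 ± 0.12 without 10 mM library 1. Without that library LLGL1 (-0.21 ± 0.06), PARD6G (-0.18 ± 0.11) and SCRIB (-0.15 ± 0.07) were also lower at the higher dose, whereas PRKCI (-0.02 ± 0.05) and PARD6B (-0.05 ± 0.13) were near 0. Over the 16 libraries without 10 mM library 1 some of the genes varied together. PARD6A, PRKCZ and LLGL2 correlated with each other at r of 0.80, 0.77 and 0.73, and SCRIB, LLGL1 and PARD6B at r of 0.93, 0.83 and 0.81, while PARD6A and SCRIB stood at r = -0.20. PARD6G correlated with SCRIB at r = 0.79. These values describe libraries that share doses and close sets and span the dose groups, so they are a description only.

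The genes whose log2 expression was most like that of a member were taken from 11306 genes over the same 16 libraries. Those most like PARD6A were FSD1 (r = 0.979), COL16A1 (0.976) and SPATA20 (0.971). FSD1 had a mean of 25.7 FPKM in control, 24.5 FPKM at 10 mM without library 1 and 15.8 FPKM at 16 mM. RAB11B (0.934), ST3GAL5 (0.925) and MINDY1 (0.924) were most like PRKCZ, and BTBD2 (0.974), CBX7 (0.971) and PNISR (0.967) most like LLGL2. For PARD6G these were RRM2B (0.949), MDM2 (0.942) and SESN1 (0.933), and MDM2 had means of 16.8, 45.6 and 28.4 FPKM. KIAA0930 was among the 3 most like both LLGL1 (0.959) and SCRIB (0.955), beside ACSS2 (0.974) and PLPPR2 (0.968) for LLGL1 and HIP1R (0.965) and SCAMP4 (0.955) for SCRIB. MAP3K14 (0.924), DGAT1 (0.915) and BAHCC1 (0.905) were most like PARD6B. Those most like PRKCI were CTNNA1 (0.869), NRDC (0.863) and RIN2 (0.845).

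The proteins that the members bind and act on were followed through 6 lists of partner genes, 83 in the table and 71 tested. At 10 mM 4 were higher (5.63%, against 9.41% of all genes), 9 were lower (12.7%, against 9.3%) and 58 did not pass. At 16 mM 12 were higher and 12 lower (16.9% each, against 17.3% and 18.1%) and 47 did not pass. Leaving out 10 mM library 1, 12 were higher and 16 lower at 10 mM (16.9% and 22.5%, against 22.4% and 22.8%), and 25 and 20 at 16 mM (35.2% and 28.2%, against 33.7% and 32.2%). Of the calls named below, 9 of 13 at 10 mM and 14 of 23 at 16 mM held whichever 1 of the 17 libraries was left out. With close libraries summed, 0 partner genes were called at either dose. On such sums without 10 mM library 1, 2 were called at 10 mM, PARD3 and PARD3B, and 19 at 16 mM. Of all 13465 genes in that fit, 246 were called at 10 mM and 3477 at 16 mM.

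Among the 8 PAR complex partners, 1 rose and 2 fell at each dose (median log2 change -0.20 at 10 mM and 0.08 at 16 mM, against 0.05 and 0.002 over all genes tested). Without 10 mM library 1 the counts were 1 and 2 at 10 mM and 2 and 2 at 16 mM. PARD3, the scaffold that brings PAR6 to the junction, stood at 25.2 to 33 FPKM (median 28.4) in control, 9.02 to 19.6 FPKM (median 18) at 10 mM and 12 to 15.6 FPKM (median 14.4) at 16 mM, with no overlap of either dose with control. PARD3 fell by 0.80 ± 0.08 at 10 mM on the log2 scale (edgeR adjusted p = 1.07e-05) and by 1.24 ± 0.09 at 16 mM (edgeR adjusted p = 6.53e-08), and without 10 mM library 1 by 0.76 ± 0.07 and 1.23 ± 0.07. Its relative PARD3B fell from a median of 6.38 FPKM to 0.385 FPKM at 10 mM (log2 change -4.04 ± 0.30, edgeR adjusted p = 3.19e-07) and 0.08 FPKM at 16 mM (-6.28 ± 0.38, edgeR adjusted p = 7.93e-09), and the changes were -4.28 ± 0.24 and -6.27 ± 0.29 without 10 mM library 1. PARD3 spans 706 kb and PARD3B 1070 kb of the genome. The 240 tested genes that span over 400 kb had a median log2 change of -0.85 at 10 mM and -1.49 at 16 mM, against 0.06 and 0.02 for the other genes matched. PARD3 thus lies close to that median at both doses and PARD3B far below it. Whether span has a part in these changes was not tested. RHOV, an atypical CDC42-like GTPase, rose by 1.18 ± 0.17 at 10 mM and 1.65 ± 0.18 at 16 mM (edgeR adjusted p = 0.000215 and 2.8e-06), from a median of 0.785 FPKM to 1.7 and 2.69 FPKM, and by 1.12 ± 0.17 and 1.66 ± 0.16 without 10 mM library 1.

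Of 8 tested Crumbs complex partners, 2 rose and 2 fell at each dose, and without 10 mM library 1 it was 2 and 3 at each (median log2 change -0.30 and -0.06 with all libraries). MPP7, a membrane scaffold that binds DLG1, fell from a median of 8.82 FPKM to 4.35 FPKM at 10 mM (-1.09 ± 0.25, edgeR adjusted p = 0.00612) and 2.16 FPKM at 16 mM (-2.12 ± 0.28, edgeR adjusted p = 1.96e-05), and without 10 mM library 1 the changes were -0.92 ± 0.17 and -2.11 ± 0.18. PATJ, the multi-PDZ protein of the complex, fell at 16 mM by 0.93 ± 0.28 (edgeR adjusted p = 0.0174), and PALS2 fell at 10 mM by 0.32 ± 0.08 (edgeR adjusted p = 0.0119). MPP3 rose by 0.69 ± 0.11 and 0.92 ± 0.11 at 10 mM and 16 mM, and LIN7C, a small adaptor of the complex, by 0.32 ± 0.10 and 0.75 ± 0.11. The call of PATJ was lost without 16 mM library 4 or 5, and that of LIN7C at 10 mM without any of 11 single libraries, the 6 controls among them.

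Of 13 tested Scribble module partners, ERBIN fell at 10 mM by 0.59 ± 0.14 (edgeR adjusted p = 0.0096) and the others did not pass. At 16 mM DLG4 (-0.91 ± 0.32), DLG1 (-0.51 ± 0.19) and ERBIN (-0.41 ± 0.15) fell, and GIT1, which with a partner exchange factor binds SCRIB, rose by 0.48 ± 0.13 (edgeR adjusted p = 0.0334, 0.0452, 0.0435 and 0.00955). DLG1, the third arm of the basolateral module beside SCRIB and Lgl, stood at a median of 31.7 FPKM in control, 27.6 FPKM at 10 mM and 23.7 FPKM at 16 mM. The call of DLG1 was lost without any of 15 single libraries, that of ERBIN at 16 mM without any of 13 and that of DLG4 without any of 6, among them 16 mM libraries 4 and 5 in each case. Without 10 mM library 1 the list had 2 higher and 3 lower at 10 mM, and 3 and 5 at 16 mM (median log2 change -0.21 and -0.02 with all libraries).

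Of 16 genes of the PAR-1, PAR-4 and PAR-5 group, 3 rose and 1 fell at 16 mM, and 8 and 2 without 10 mM library 1 (median log2 change 0.05 at 10 mM and 0.17 at 16 mM with all libraries). YWHAG, a PAR-5 adaptor, rose by 0.71 ± 0.15, CAB39L by 0.60 ± 0.19 and CAB39 by 0.38 ± 0.10, the last 2 encoding scaffolds of the kinase LKB1, and STRADA, its pseudokinase partner, fell by 0.47 ± 0.11. SFN, another PAR-5 relative, was called at 10 mM (1.96 ± 0.64, edgeR adjusted p = 0.0427) on library 1, where the highest value was 472 FPKM, and stood at 0.48 ± 0.28 without it (edgeR adjusted p = 0.175). At 16 mM SFN had 84.7 to 202 FPKM, against 38.1 to 73.6 FPKM in control. There it did not pass with all libraries (1.33 ± 0.65, edgeR adjusted p = 0.126). Without 10 mM library 1 it passed at 16 mM (1.34 ± 0.28, edgeR adjusted p = 0.000434). The call of CAB39L was lost without 16 mM library 4 or 5. At 10 mM SFN was the list's 1 call, and without library 1 there were 3 higher and 2 lower.

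Of 17 tested genes of tight and adherens junctions, 0 rose and 3 fell at 10 mM, and 3 rose and 2 fell at 16 mM. Without 10 mM library 1 these were 3 and 5, and 5 and 6 (median log2 change -0.04 and -0.08 with all libraries). OCLN, the tight junction protein occludin, fell by 0.62 ± 0.20 at 10 mM (edgeR adjusted p = 0.0397) and 0.56 ± 0.21 at 16 mM (edgeR adjusted p = 0.0472), from a median of 12.5 FPKM to 9.74 and 9.42 FPKM, and without 10 mM library 1 by 0.47 ± 0.14 and 0.55 ± 0.14. F11R, the junctional adhesion molecule that recruits PAR3, fell at 16 mM by 0.90 ± 0.19 (edgeR adjusted p = 0.00128). The nectin gene NECTIN1 rose at 16 mM by 0.90 ± 0.18 (edgeR adjusted p = 0.000942) and MARVELD2 by 0.64 ± 0.22 (edgeR adjusted p = 0.0272), while NECTIN3 (-0.54 ± 0.11) and TJP1 (-0.49 ± 0.16) fell at 10 mM. The calls of OCLN were lost without any of 7 single libraries at 10 mM and any of 12 at 16 mM, that of TJP1 without any of 15 and that of MARVELD2 without any of 5, and control library 6 is among these in each case.

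Among 9 apical cortex genes, AMOT fell at both doses (-0.70 ± 0.20 and -0.65 ± 0.21), PODXL, an apical sialomucin, fell at 16 mM (-0.81 ± 0.20), and AMOTL2 (0.45 ± 0.10) and SLC9A3R1 (0.32 ± 0.12) rose at 16 mM. The list had 0 higher and 1 lower at 10 mM and 2 and 2 at 16 mM, and without 10 mM library 1 it had 1 and 1, and 5 and 2 (median log2 change -0.02 and 0.32 with all libraries). The call of AMOT at 16 mM was lost without 16 mM library 4 or 5, and that of SLC9A3R1 without any of 14 single libraries. Apart from SFN, the calls named for the partner genes also passed without 10 mM library 1, in the same direction.

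**Figure D4:**
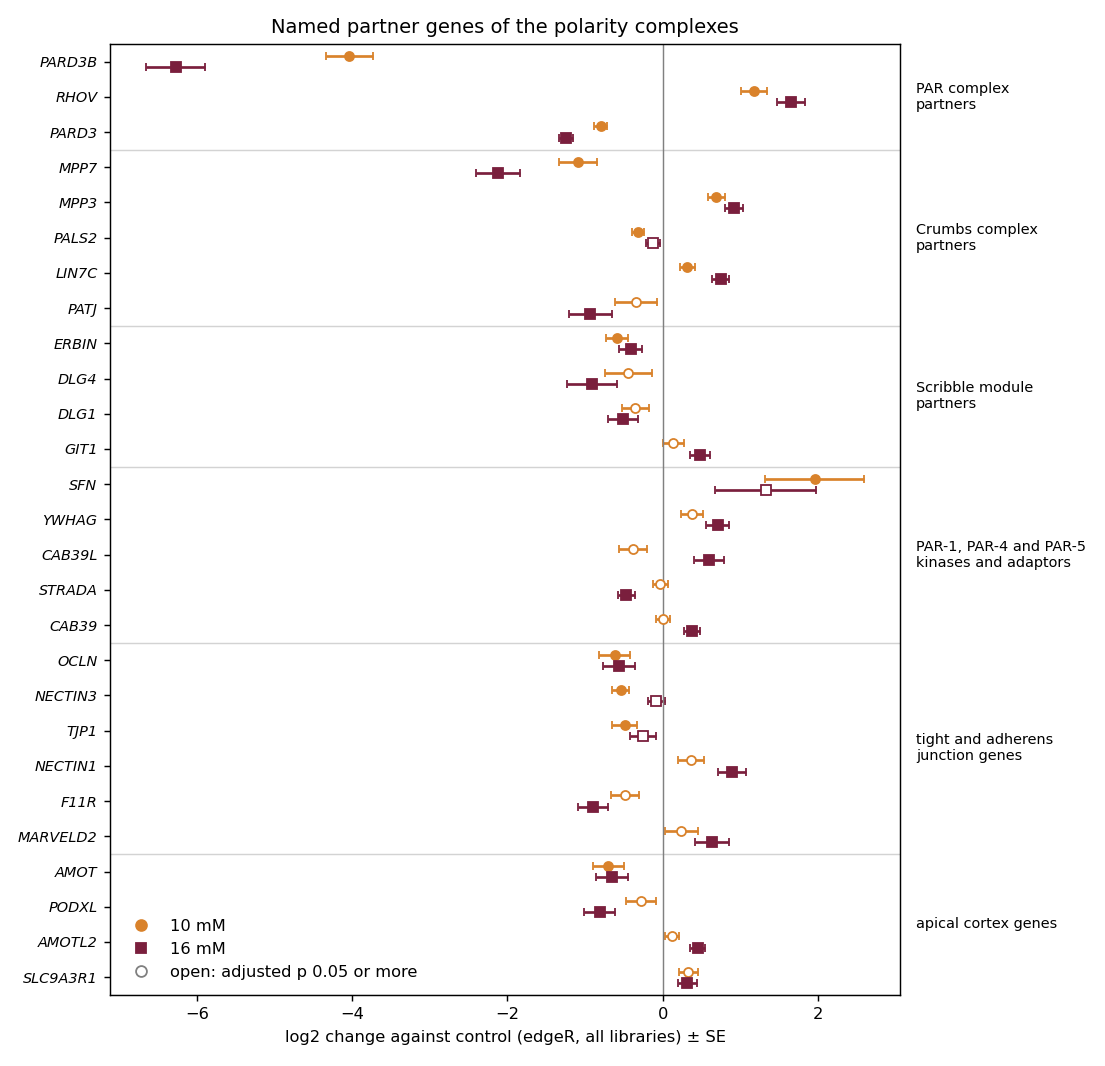
Log2 change against control from edgeR with SE, all libraries, for the named partner genes of the polarity proteins, grouped by list; circles are 10 mM, squares 16 mM and open symbols did not pass. PARD3B has the lowest values, -4.04 and -6.28, and most of the other changes lie between -1.24 and 1.65.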

How the data were processed

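The authors deposited 1 table of protein-coding genes. Per the submitters' processing notes, HISAT, Bowtie2 2.3.4.3, RSEM 1.3.1, DESeq2 1.4.5 and build GRCh38.p13 were used, with no roles given. The authors' read counts are, per the file headers, deposited per gene without normalization, and they were treated as estimated counts (expected counts in RSEM's terms), since 13.1% are not whole. The deposited FPKM are normalised by transcript length and depth, per the file headers. The deposited TPM (sums of 999999.24 to 1000000.22) served as a check. The authors' log2 fold changes and q-values, per the file headers from DESeq2, are quoted only where their deposited table is named.

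After rounding, edgeR 4.0.16 in R 4.3.3 (TMM, then glmQLFit and glmQLFTest) tested the counts in 1 fit over 17 libraries with 14 residual degrees of freedom, on the 12564 genes kept by filterByExpr. Tests were two-sided with Benjamini-Hochberg adjustment over these genes, and genes were called at an adjusted p under 0.05. The SE was derived from the log2 change and the test's F statistic (log2 change over the root of F). The code was tested on simulated data. Alternatives used limma 3.58.1 on log2(FPKM + 1) or log2(FPKM + 0.1), with 1 FPKM in at least 5 libraries, DESeq2 1.42.0, no filter, a replicate block, left-out libraries and sets or sums of close libraries. No 2 libraries of a group agreed within counting noise (chi-square per gene of 1.72 to 11.6 within a close set, 20.5 to 53.6 between sets, 519 or more with 10 mM library 1), so none was merged as a duplicate. This does not show that libraries of a close set are separate cultures.

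The members and lists were chosen with earlier results of these data known. All members are named. Of each partner list, up to 4 called genes per comparison with at least 1 FPKM and the largest changes are named, or up to 2 where none was called, and PARD3 and PARD3B always. The 3 genes most like each member are those with the highest Pearson r of TMM log2 CPM, computed from the counts.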

Additional observations from a re-analysis of the deposited data

Results flagged for a closer look

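Of 27 groups of library values examined for the 9 genes, 6 had a lowest or highest library far from the rest by Dixon's gap criterion, which chance meets in about 1 in 20 groups. In 5 of them the library was 10 mM library 1, with 1.09 FPKM for PARD6B, 8.76 FPKM for PRKCI, 11.15 FPKM for PRKCZ, 11.0 FPKM for LLGL1 and 4.92 FPKM for SCRIB, each the lowest FPKM of its gene. FPKM are not scaled by the TMM factor. On edgeR's scale that library held 40.5 CPM of PRKCZ, above the 36.8 CPM of 16 mM libraries 4 and 5. Its 8.38 CPM of PARD6B lay just below control library 1 (8.53 CPM). PRKCI (72 CPM), LLGL1 (48.9 CPM) and SCRIB (46.2 CPM) were lowest there on this scale too. PRKCI stood at 32.6 to 34.8 FPKM in the other 10 mM libraries. The other flagged value was LLGL2 in control library 3, at 26.01 FPKM, above 23.62 to 24.38 FPKM in the other controls.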

How the results depend on the processing

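At 10 mM the count of called members was 0 with all libraries. With 10 mM library 1 left out, it was 4 in the edgeR fit, in a fit of the 2 groups compared, with limma, with DESeq2 and with the close set as a term, 3 with a replicate block, 5 within the first sets and 3 within the second. Leaving out 1 library at a time gave 0 to 4. Of all genes at 10 mM, the edgeR fit without library 1 called 5670 of 12545. Also without it, the fit of the 2 groups compared called 5873 of 12437, limma 5103 of 11525 and DESeq2 5862 of 12564. The set as a term called 7223 of 12545 and the block 5653 of 12545. Within the first sets 8040 of 12613 genes were called, and within the second 7725 of 12528. At 16 mM the count of called members was 1. It was 0 with a replicate block, with no filter on low counts, with limma at either pseudocount, and with close libraries summed, with or without 10 mM library 1. It was 4 with only the 2 groups compared, and without 10 mM library 1 it was 5 with a replicate block, 4 with the 2 groups compared or DESeq2, 3 with limma and 6 with the close set as a term. It was 4 within the first sets and 2 within the second. Leaving out 1 library at a time gave 0 to 4. Of all genes at 16 mM, the fit of the 2 groups compared called 7979 of 12410. The first and second sets called 9063 of 12613 and 9776 of 12528. Without 10 mM library 1 the edgeR fit called 8271 of 12545 genes, the block 8506 and the set as a term 9284. Limma without that library called 7523 of 11525 genes and DESeq2 8363 of 12564. The counts of members are to be read against these. With close libraries summed, edgeR called 0 of 13525 genes in either comparison with control (739 and 1290 at an unadjusted p under 0.05). In the comparison of 16 mM with control, 10 mM library 1 is in neither group. Leaving it out took SCRIB there from 0.279 ± 0.180 to 0.287 ± 0.064 and LLGL1 from 0.180 ± 0.147 to 0.188 ± 0.055. PARD6G went from 0.261 ± 0.296 to 0.268 ± 0.105. The cause of the shifts in the count of members was not tested beyond the libraries left out.

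Some changes had another sign than in the edgeR fit. PARD6B at 16 mM was -0.139 within the second sets. At 10 mM PARD6G was -0.020 and -0.121 with limma at pseudocounts 1 and 0.1 and -0.051 with close libraries summed. At 10 mM PRKCZ was -0.126 and -0.134 with limma, -0.037 with sums and -0.027 within the second sets, and -0.025 to 0.066 with 1 library left out. LLGL2 at 10 mM was -0.045 and -0.049 with limma, -0.117 with sums and -0.137 within the second sets, and -0.036 to 0.137 with 1 library left out. Limma's scale put the median of all genes at -0.111 at 10 mM, against 0.05 with edgeR. Of 16 same-numbered pairs of libraries, 12 had a correlation of deviations over 0.1, and the range was -0.39 to 0.414. Differently numbered pairs were not compared, so these values cannot show whether replicate numbers pair the libraries. The block took the adjusted p of PRKCZ at 16 mM to 0.0886, and without 10 mM library 1 that of LLGL2 to 0.0439 (edgeR). The fits within sets, with the set as a term and, apart from the block, those without 10 mM library 1 that change another choice too were added after seeing the data.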
